A study of Mus musculus with 12 samples.

Results

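The interferon system, the sensing of double-stranded RNA and class I antigen presentation were followed through 45 listed genes in mouse embryonic stem (ES) cells and their differentiated derivatives. Each gene was found by its symbol in the deposited tables and stood for by its longest transcript model. All 45 had reads in at least 1 library, of 22878 symbols in the tables, and 32 had reads in every one of the 12 libraries. RNA with a polyA tail was sequenced from WT cells, from SUV420H2 knockout cells (KO) and from cells labelled as SUV420H1/H2 double knockout (DKO). Both enzymes methylate lysine 20 of histone H4, a mark of heterochromatin. Undifferentiated ES cells, passaged on gelatin with 1.5 µM of a GSK3 inhibitor so that feeder cells were lost, gave 2 libraries per genotype. Differentiated cells gave 1 library per genotype at day 8 and 1 at day 12. The labels give no strain, number of clones or differentiation protocol. They leave unsaid if the replicate ES libraries were separate cultures, so p-values measure the spread between these libraries, which may be technical. The KO and DKO comparisons share the WT libraries, so their values are only given side by side.

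Reads in genes ranged from 22538336 to 26675600 per library. Suv420h2 was at 122 and 110.1 CPM (counts scaled to library size) in WT ES cells, at 19.1 and 17.3 in KO and at 23.2 and 14.8 in DKO. Suv420h1 was at 44.2 and 49.0 CPM in the WT ES libraries. The ES libraries labelled DKO held 60.3 and 69.7 CPM, which was higher (log2 fold change 0.49, SE 0.13, edgeR adjusted p = 0.0057). Counts over a whole transcript do not show the loss of single exons, so this does not check the second knockout. ES cell replicates differed by more than counting noise, with chi-square over degrees of freedom at 3.99 (WT), 15.6 (KO) and 37.9 (DKO).

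Interferons are secreted proteins that cells release on infection. They bind receptors such as IFNAR1/IFNAR2, and a complex that holds STAT2 and IRF9 then enters the nucleus and switches on interferon-stimulated genes through a DNA element that repeats GAAA. Double-stranded RNA is sensed by RIG-I (Ddx58), MDA5 (Ifih1), TLR3 and PKR (Eif2ak2), and pluripotent cells are known for a weak interferon response and for holding some antiviral genes on without interferon. Class I molecules, made of a heavy chain and beta-2 microglobulin, show peptides cut by the proteasome to T cells.

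Promoters are shown for 5 genes of the OAS and IFITM families and Bst2, picked because they hold the core of the response element that binds the interferon-activated complex and were lower in DKO ES cells. The motif (GAAA, then any 2 bases, then GAAA) was searched on both strands from 250 bases before to 50 bases after each gene start in RefSeq (build GRCm38.p6). Of 45 genes, 36 were in that table under their symbol, and 15 of them (41.7%) held the motif, against 1079 of 27025 promoters in the table (3.99%) and 270 of 8376 promoters of genes tested in ES cells (3.22%). By role it was in 1 of 7 promoters of receptors and transcription factors, 3 of 6 of sensors, 3 of 5 of the OAS family, 2 of 3 of the IFITM family, 5 of 8 of other antiviral effectors and 1 of 7 of class I genes. Among genes lower in DKO than in WT ES cells, 7 of 13 (53.8%) held it, and of those higher 1 of 7, B2m. Ifitm1, which had a larger fall in DKO than Ifitm2, Ifitm3 and Bst2, held no match, and neither did Adar or Tap1. The 5 shown run from 150 bases before to 30 after the start, on the minus strand, 5′ to 3′ along the gene, with the motif in capitals. They lie at chr5:120907496-120907675 (Oas1a), chr5:120887584-120887763 (Oas1g), chr7:141010715-141010894 (Ifitm3), chr8:71537443-71537622 (Bst2) and chr7:140955932-140956111 (Ifitm2). In Oas1a, Oas1g and Bst2 a pair of matches overlap and form 1 run of capitals.
Oas1a: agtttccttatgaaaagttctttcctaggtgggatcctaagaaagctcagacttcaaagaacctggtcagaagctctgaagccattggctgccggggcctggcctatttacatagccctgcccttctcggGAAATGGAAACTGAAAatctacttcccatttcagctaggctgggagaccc
Oas1g: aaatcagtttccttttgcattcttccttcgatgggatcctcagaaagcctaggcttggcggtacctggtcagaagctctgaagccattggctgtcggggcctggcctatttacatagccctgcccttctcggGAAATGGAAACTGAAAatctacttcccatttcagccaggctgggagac
Ifitm3: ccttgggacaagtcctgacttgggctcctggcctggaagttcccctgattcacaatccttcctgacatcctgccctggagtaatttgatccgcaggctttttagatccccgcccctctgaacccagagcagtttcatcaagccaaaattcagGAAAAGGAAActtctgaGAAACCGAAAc
Bst2: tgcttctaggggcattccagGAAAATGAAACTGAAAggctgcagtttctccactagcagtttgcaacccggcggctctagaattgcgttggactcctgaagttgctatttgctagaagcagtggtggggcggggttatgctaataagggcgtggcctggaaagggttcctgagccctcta
Ifitm2: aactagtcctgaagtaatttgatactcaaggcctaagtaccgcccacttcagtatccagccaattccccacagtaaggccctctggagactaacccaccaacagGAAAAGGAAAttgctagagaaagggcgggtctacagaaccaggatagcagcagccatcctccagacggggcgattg
Counting the start as base 1, the first matching base was at -20 in Oas1a, -18 in Oas1g, -130 in Bst2, -46 in Ifitm2 and 3 in Ifitm3, where the motif lay within the transcribed part. Oas1a and Oas1g, neighbouring copies of 1 gene, carried the same run of capitals. A match is a description of these letters and not of binding.

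Levels were compared between genes in RPKM (reads per length of the transcript model and per library total). In WT ES cells 21 of the 45 genes had a mean of at least 1 RPKM, in KO 23 and in DKO 20. After differentiation the numbers were 31 in WT, 30 in KO and 21 in DKO. The IFITM genes, membrane proteins that block the entry of viruses, stood at the top in WT ES cells, with Ifitm2 at 110.5 RPKM and Ifitm3 at 65.4 RPKM, ahead of the class I heavy chain H2-K1 at 34.0 RPKM. At the other end, Usp18 and Mx1 had no reads in either WT ES library, and Isg15, Ifit1, Ifih1 and Psmb8 were below 0.5 CPM in all 6 ES libraries. ES cells thus held much RNA of some interferon-stimulated genes and almost none of others. Interferon genes themselves gave 4 and 1 reads in the WT ES libraries, 1 read in KO at day 8 and 0 in the other 9 libraries, summed over 7 of 9 listed genes found in the tables.

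**Figure D1:**
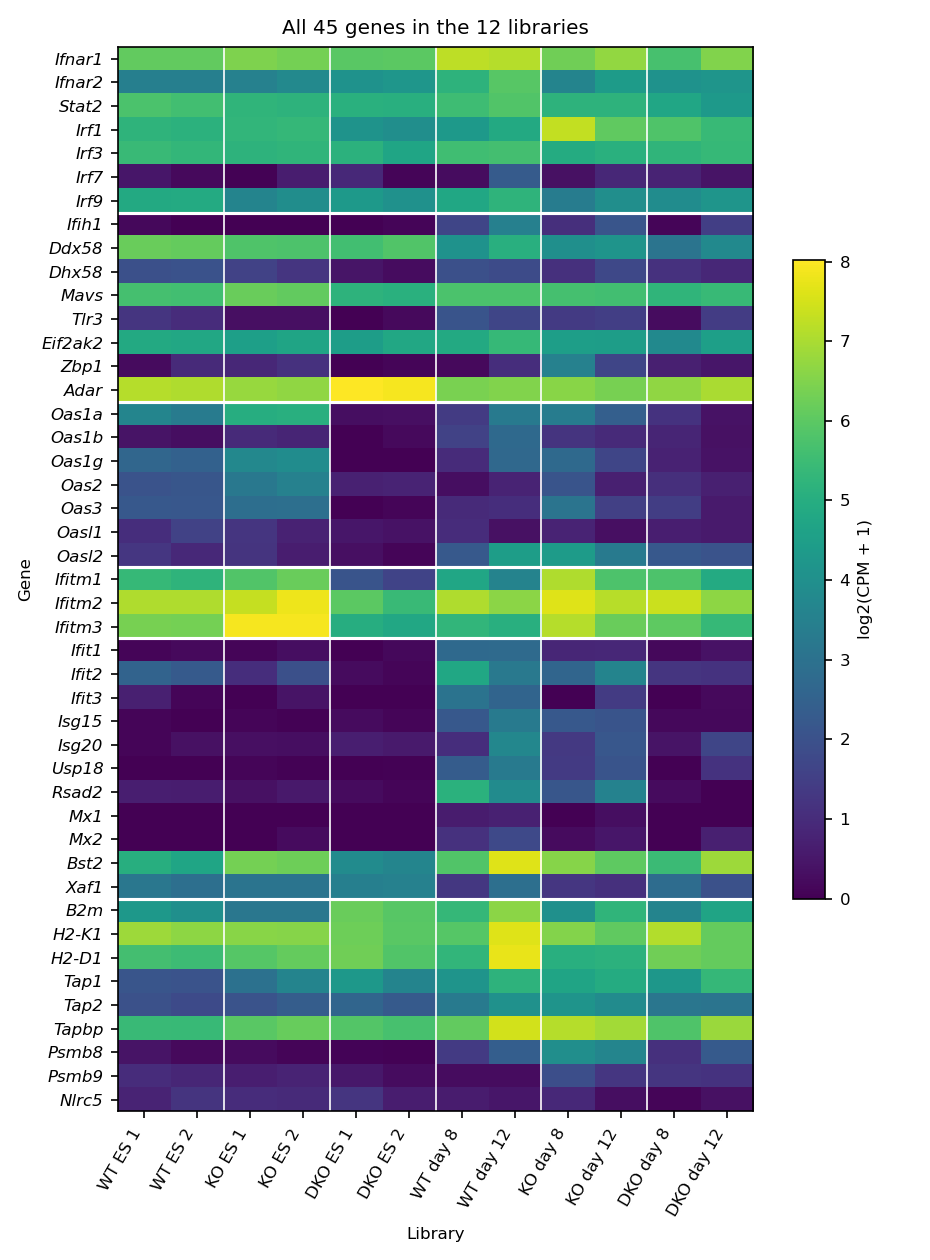
Level of all 45 genes (rows, by role) in the 12 libraries (columns), as log2(CPM + 1). Oas1a and the IFITM genes are higher in WT and KO ES cells than in DKO ES cells, and Isg15, Usp18 and Rsad2 are near 0 in all 6 ES libraries and above it in differentiated WT cells.

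KO ES cells held more RNA of Oas1a, Oas1g, Oas2, the 3 IFITM genes, Bst2 and the peptide transporter Tap1 than WT, and DKO ES cells held less of these genes, Tap1 excepted. A gene was called higher or lower at an edgeR quasi-likelihood adjusted p under 0.05 over all genes tested. Of the 45 genes, 23 passed the filter of at least 1 RPKM in at least 2 of the 6 ES libraries. Oas2 passed only through the KO libraries and Tap1 only through KO and DKO, which favours their calls as higher there. Against WT, KO had 12 of the 23 higher and 5 lower, where of all 12044 genes tested 42.7% were called, 23.5% higher and 19.2% lower. DKO had 7 of 23 higher and 14 lower than WT, where 63.9% of all genes were called, 32.2% higher and 31.7% lower. DKO against KO had 5 higher and 11 lower, where 67.3% were called, 33.3% higher and 34.1% lower. The median log2 fold change of the 23 genes was 0.31 in KO against WT, -0.49 in DKO against WT and -0.29 in DKO against KO, and that of all genes was -0.01, -0.01 and -0.02. The shares called among all genes were large, so the sizes of the differences are given with each gene.

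**Figure D2:**
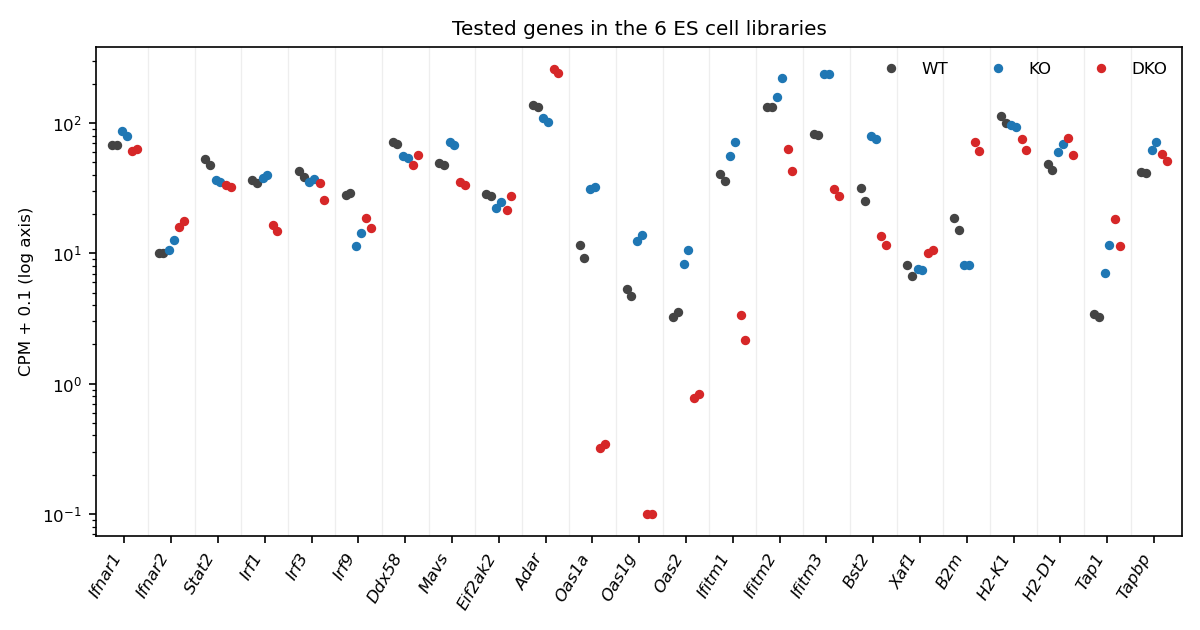
Level of the 23 tested genes in the 6 ES libraries (CPM + 0.1, log axis, points are libraries). The OAS and IFITM points of DKO lie below those of both other genotypes, and those of KO above WT, while B2m runs the other way.

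The OAS enzymes make 2-5A, a short RNA signal that switches on RNase L when double-stranded RNA is present. Oas1a was at 11.5 and 9.16 CPM in the 2 WT ES libraries, at 31.0 and 32.3 in KO and at 0.223 and 0.244 in DKO. All 3 genotypes were apart, KO above WT and DKO near 0. The difference was 1.62 in KO against WT on the log2 scale (SE 0.17, edgeR adjusted p = 1.6e-05), -5.43 in DKO against WT (SE 0.30, adjusted p = 2.8e-08) and -7.05 in DKO against KO (SE 0.28, adjusted p = 1.8e-09), or 132-fold. Its neighbour Oas1g was at 5.21 and 4.62 CPM in WT, at 12.3 and 13.8 in KO and had no reads in DKO. It rose in KO by 1.41 (SE 0.23, edgeR adjusted p = 0.00054). At a floor of 3 counts per library it was at least 38.5-fold lower in DKO than in WT (edgeR adjusted p = 3.6e-07) and at least 102-fold lower than in KO (adjusted p = 3.6e-08). Oas1a and Oas1g are close copies, so the split of reads between them is uncertain. Oas2, the larger OAS enzyme, was at 3.14 and 3.42 CPM in WT, 8.22 and 10.5 in KO and 0.669 and 0.731 in DKO. It rose by 1.52 in KO (SE 0.26, edgeR adjusted p = 0.00052), fell by 2.21 in DKO against WT (SE 0.33, adjusted p = 8.5e-05) and was lower in DKO than in KO (-3.73). Oas3, the largest, was below the filter, at 3.64 and 3.54 CPM in WT, 6.48 and 6.55 in KO and 0 and 0.0813 in DKO. Each of the 3 OAS genes above the filter thus had its top level in KO and its lowest in DKO, by the test. Oas2 passed the filter only through its KO libraries, which favoured its place at the top there. Oas1a and Oas1g, as close copies, may not count as separate cases. The share of all genes with this order is not given here, so the count does not set the family apart. The other 4 of the family are given with the genes below the filter, where Oasl1 (-0.60), Oasl2 (-0.33) and Oas1b (1.56) were not called in KO against WT. These genes lie on chromosome 5, whose tested genes had a median log2 fold change of 0.00 in KO and -0.02 in DKO against WT.

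The IFITM proteins sit in cell and endosome membranes and hinder virus fusion, and Ifitm1 and Ifitm3 also mark early germ cells. Ifitm3 was at 81.6 and 80.1 CPM in the WT ES libraries, 239.5 and 239 in KO and 31.0 and 27.3 in DKO. It rose by 1.57 in KO (SE 0.12, edgeR adjusted p = 8.5e-07) and was lower in DKO by 1.47 than in WT (log2 fold change -1.47, SE 0.12, adjusted p = 6.1e-07). Ifitm1 was at 40.3 and 35.9 CPM in WT, 56.0 and 72.1 in KO and 3.26 and 2.07 in DKO. It was higher in KO by 0.76 (SE 0.17, edgeR adjusted p = 0.0037), a call lost without KO ES replicate 2 (0.58, adjusted p = 0.075). In DKO it was 14.3-fold lower than in WT (log2 fold change -3.84, SE 0.22, edgeR adjusted p = 3.5e-08). Ifitm2 was at 132 and 132 CPM in WT, 159.7 and 222 in KO and 63.3 and 42.6 in DKO. The log2 fold changes were 0.54 in KO (SE 0.18, edgeR adjusted p = 0.031) and -1.32 in DKO (SE 0.19, adjusted p = 6.0e-05). The call of Ifitm2 in KO was lost without KO ES replicate 2 (0.30, adjusted p = 0.33), WT ES replicate 1 (adjusted p = 0.075) or WT ES replicate 2 (adjusted p = 0.079). No library of a genotype overlapped another genotype for any of the 3 genes. The share of all genes separated in this way is not given here, so the separation does not set them apart. The IFITM genes too are similar copies in 1 cluster on chromosome 7. Summed over 6 markers of primordial germ cells the level was 141 and 139 CPM in WT ES cells, 252 and 245 in KO and 87.0 and 88.1 in DKO. Most of it was Tfap2c, at 104 and 101 CPM in WT, 177 and 172 in KO and 40.7 and 33.1 in DKO. Of the 6 markers 4 were higher and 1 lower in KO against WT, and 3 were lower and 2 higher in DKO, the latter Prdm1 and Ddx4. Dppa3 was at 0 in DKO replicate 1, and the part of such cells in the IFITM levels was not tested.

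Bst2 (tetherin), which holds budding viruses at the cell surface, was at 31.9 and 25.1 CPM in the WT ES libraries, 80.1 and 74.7 in KO and 13.5 and 11.5 in DKO. The order KO, WT, DKO was that of the OAS and IFITM genes, with log2 fold changes of 1.45 in KO against WT (SE 0.15, edgeR adjusted p = 1.2e-05) and -1.18 in DKO against WT (SE 0.16, adjusted p = 3.7e-05). Xaf1, a pro-apoptotic interferon-stimulated gene, was at 8.07 and 6.55 CPM in WT, 7.44 and 7.41 in KO and 10.0 and 10.5 in DKO. It was not called in KO (0.03, SE 0.21, edgeR adjusted p = 0.92) and was higher in DKO (0.50, SE 0.20, adjusted p = 0.049). The latter call was lost without WT ES replicate 2 (0.35, edgeR adjusted p = 0.33), WT ES replicate 1 (adjusted p = 0.076) or DKO ES replicate 2 (adjusted p = 0.078).

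Class I genes did not move as 1 group. B2m, beta-2 microglobulin, was at 18.5 and 15.1 CPM in the WT ES libraries, 8.10 and 8.11 in KO and 71.9 and 60.6 in DKO, the reverse of the OAS order. It was lower in KO (-1.05 on the log2 scale, SE 0.17, edgeR adjusted p = 0.00029), higher in DKO (1.98, SE 0.16, adjusted p = 4.9e-07) and 8.16-fold higher in DKO than in KO. Tap1, a subunit of the transporter that carries peptides into the endoplasmic reticulum, was at 3.35 and 3.13 CPM in WT, 7.02 and 11.4 in KO and 18.2 and 11.3 in DKO. It rose against WT in both, by 1.51 in KO (SE 0.30, edgeR adjusted p = 0.0014) and 2.19 in DKO (SE 0.30, adjusted p = 4.0e-05). The KO and DKO libraries overlapped. The WT libraries were at 0.60 and 0.56 RPKM, so Tap1 passed the filter only through KO and DKO. Tapbp (tapasin), which loads peptides, was at 41.8 and 41.0 CPM in WT, 62.2 and 70.8 in KO and 57.9 and 50.8 in DKO. It rose by 0.69 in KO (SE 0.13, edgeR adjusted p = 0.00098) and by 0.40 in DKO (SE 0.13, adjusted p = 0.017), the latter lost without WT ES replicate 1 (adjusted p = 0.099) or 2 (adjusted p = 0.12).

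The 2 class I heavy chains differed. H2-K1 was at 113 and 101 CPM in the WT ES libraries, 96.3 and 93.8 in KO and 75.7 and 61.6 in DKO. Its log2 fold change was -0.16 in KO (SE 0.13, edgeR adjusted p = 0.34) and -0.63 in DKO (SE 0.13, adjusted p = 0.0011). H2-D1 was at 48.4 and 43.9 CPM in WT, 59.5 and 69.5 in KO and 76.996 and 56.8 in DKO. It was higher by 0.49 in KO (SE 0.16, edgeR adjusted p = 0.023) and 0.54 in DKO (SE 0.16, adjusted p = 0.0089). Without KO ES replicate 2 H2-D1 in KO was at 0.40 (edgeR adjusted p = 0.18), without WT ES replicate 1 at 0.56 (adjusted p = 0.052) and without WT ES replicate 2 at 0.42 (adjusted p = 0.16). In DKO without WT ES replicate 2 it was at 0.47 (adjusted p = 0.070). Heavy chain genes are similar to each other, and how their reads were split is uncertain. Of 5 class I genes tested, 3 were higher and 1 lower in KO, and 4 higher and 1 lower in DKO. Summed over 8 leukocyte markers, a cell type rich in class I RNA, the level was 107 to 117 CPM in WT and KO ES cells and 500 and 419 in DKO. In DKO 492 and 412 CPM of it was Laptm5, a lysosomal membrane gene of blood cells, while Ptprc, which defines leukocytes, Emr1 and Tyrobp were at 0, and the part of the rest was not tested.

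**Figure D3:**
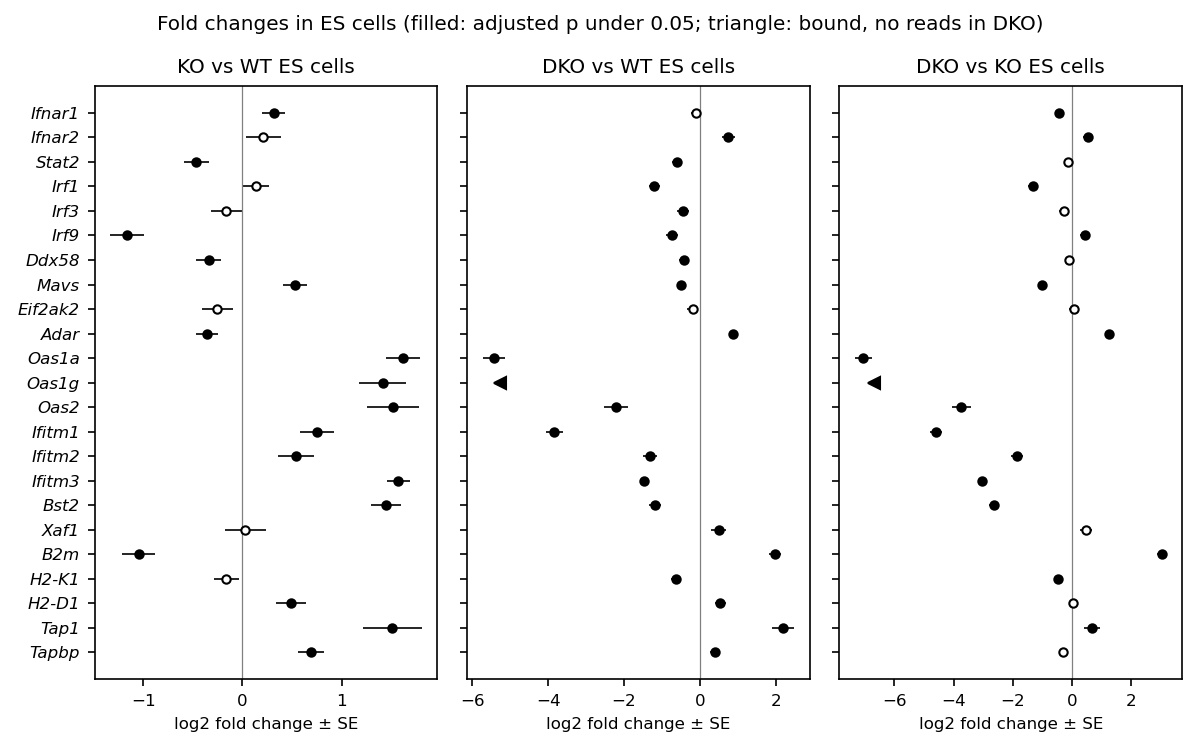
Log2 fold change with its SE of the 23 tested genes in 3 comparisons of ES cells; filled points have an edgeR adjusted p under 0.05, and the triangle is the bound for Oas1g, which had no reads in DKO. Oas1a, Oas1g and Ifitm1 lie farthest below 0 in DKO, and B2m and Tap1 above.

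Of 6 receptors and transcription factors tested, 1 was higher and 2 lower in KO, and 1 higher and 4 lower in DKO against WT. The receptor chains Ifnar1 and Ifnar2 bind type I interferon. Ifnar1 was at 67.4 and 67.2 CPM in the WT ES libraries, 87.0 and 79.4 in KO and 61.2 and 63.3 in DKO. Its log2 fold change of 0.31 in KO (SE 0.12, edgeR adjusted p = 0.045) missed the threshold when any 1 of the 4 libraries was left out (adjusted p 0.057 to 0.26). Ifnar2 was at 9.97 and 10.0 CPM in WT, 10.5 and 12.6 in KO and 15.8 and 17.7 in DKO, higher in DKO by 0.75 (SE 0.18, edgeR adjusted p = 0.0025). Irf9, the DNA-binding part of the interferon-activated complex, was at 28.1 and 29.1 CPM in WT, 11.3 and 14.2 in KO and 18.7 and 15.6 in DKO. It was lower in KO (-1.16, SE 0.17, edgeR adjusted p = 0.00017) and in DKO (-0.73, SE 0.17, adjusted p = 0.0022). Irf9 is on chromosome 14, whose tested genes had a median log2 fold change of -0.53 in KO against WT and 0.08 in DKO against WT, and the part of the chromosome in its fall was not tested.

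Stat2, which pairs with Irf9, was at 52.5 and 47.7 CPM in the WT ES libraries, 36.8 and 35.4 in KO and 33.3 and 32.4 in DKO. It was lower in KO (-0.47 on the log2 scale, SE 0.13, edgeR adjusted p = 0.010) and in DKO (-0.60, SE 0.13, adjusted p = 0.0013). The KO call was lost without WT ES replicate 1 (-0.40, adjusted p = 0.16), KO ES replicate 1 (adjusted p = 0.050) or KO ES replicate 2 (adjusted p = 0.084). Irf1, an activator of antiviral and class I genes, was at 36.5 and 34.8 CPM in WT, 38.0 and 39.8 in KO and 16.4 and 14.6 in DKO. It was lower in DKO than in WT (-1.20, SE 0.14, edgeR adjusted p = 1.2e-05) and than in KO (-1.33, adjusted p = 3.9e-06). In KO against WT it was not called (0.13, edgeR adjusted p = 0.46). It is on chromosome 11, whose tested genes had a median of -0.40 in DKO against WT and -0.56 in DKO against KO, and the part of the chromosome was not tested. Irf3, which is activated by the RNA sensors, was between 35.3 and 42.6 CPM in WT and KO and at 34.6 and 25.4 in DKO. It was lower in DKO than in WT (-0.43, SE 0.16, edgeR adjusted p = 0.030), a call lost without DKO ES replicate 2 (-0.19, adjusted p = 0.24), WT ES replicate 1 (adjusted p = 0.17) or WT ES replicate 2 (adjusted p = 0.057). Irf7, the amplifier of type I interferon, was below 1 CPM in all 6 ES libraries.

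The sensors above the filter were Adar, Mavs, Ddx58 and Eif2ak2. Adar is the enzyme that edits adenosines in double-stranded RNA and keeps it from being sensed. It was at 138 and 133 CPM in the WT ES libraries, 109.7 and 102 in KO and 259 and 241 in DKO. It was higher in DKO by 0.89 (SE 0.11, edgeR adjusted p = 2.1e-05) and lower in KO (-0.35, SE 0.11, adjusted p = 0.022). The KO call missed the threshold when any 1 of the 4 libraries was left out (adjusted p 0.052 to 0.20). Mavs, the adaptor on mitochondria that passes on the RIG-I and MDA5 signal, was at 49.4 and 47.3 CPM in WT, 71.9 and 67.2 in KO and 35.2 and 33.3 in DKO. It had the order of the OAS genes. The difference was 0.53 in KO (SE 0.12, edgeR adjusted p = 0.0037; without WT ES replicate 2 adjusted p = 0.069) and -0.49 in DKO (SE 0.12, adjusted p = 0.0039; without WT ES replicate 1 adjusted p = 0.055). Ddx58, which encodes RIG-I, was at 71.2 and 68.7 CPM in WT, 55.7 and 54.2 in KO and 47.3 and 56.6 in DKO, so that both mutants were below WT and overlapped each other. Its calls were -0.34 in KO (edgeR adjusted p = 0.047) and -0.42 in DKO (adjusted p = 0.011). The KO call was lost without any 1 of the 4 libraries (adjusted p 0.14 to 0.26). The DKO call was lost without WT ES replicate 1 (adjusted p = 0.098), WT ES replicate 2 (0.061) or DKO ES replicate 1 (0.057). Eif2ak2, the kinase PKR that stops translation on double-stranded RNA, was between 21.3 and 28.5 CPM in the 6 libraries and was called in no comparison of ES cells.

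All 12 libraries were also fitted together, with 1 estimate of the spread for ES and differentiated cells. Of 34 genes tested, 5 were then called in KO against WT ES cells, Ifitm3, Mavs and Tap1 higher and B2m and Irf9 lower. The other 12 KO calls were lost, with edgeR adjusted p from 0.058 (Ifitm1) and 0.073 (Bst2) through 0.20 (Oas1a), 0.29 (Oas1g) and 0.19 (Oas2) to 0.59 (H2-D1). In DKO against WT 14 were called in that fit, among them Oas1a, Oas1g, the 3 IFITM genes, B2m, Tap1, Irf1 and Adar. Those lost were Oas2 (adjusted p = 0.0504 with edgeR), Bst2 (0.078), Irf3 (0.081), Ddx58 (0.14), H2-K1 (0.36), Tapbp (0.36), H2-D1 (0.45) and Xaf1 (0.56). The fold changes of these genes were nearly the same in both fits, such as 1.61 and 1.62 for Oas1a in KO.

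Of the 22 genes below the ES filter, 21 were tested in a fit of every gene with a read. In that fit 18743 genes were tested, and 33.7% (KO against WT), 48.5% (DKO against WT) and 52.4% (DKO against KO) were called. In KO against WT Oas3 was higher (0.83, edgeR adjusted p = 0.032), and Ifit2 (-1.16) and Tlr3 (-2.25), the endosomal sensor, were lower. In DKO 8 of 21 were lower than in WT and 0 higher, a smaller share than the 48.5% of all genes, whose split by direction is not given. They were Dhx58 (-3.42), Ifit2 (-5.04), Oas3 (-6.25), Oasl1 (-2.09), Oasl2 (-2.72), Tlr3 (-3.78), Zbp1 (-3.56) and Ifit3. Ifit3 had no reads in DKO and was at least 2.74-fold lower. Oas3 and Zbp1 had 0 and 2 reads in DKO and Tlr3 0 and 4, so their sizes are uncertain. Dhx58, the LGP2 helper of MDA5, was at 2.90 and 3.05 CPM in WT, 1.99 and 1.34 in KO and 0.357 and 0.203 in DKO. Ifit2, which binds translation factors, was at 4.84 and 3.78 CPM in WT, 1.08 and 2.86 in KO and 0.178 and 0.0813 in DKO, and so was lower in KO as well as DKO, unlike the OAS genes. DKO had 7 of these 21 genes lower than KO and 0 higher, where 52.4% of all genes were called. Among the 7, Oas3 (-7.08) and Zbp1 (-4.45), a sensor of Z-form RNA, had the largest sizes. Oas1b was lower in DKO than in KO (-3.28). The other 12 genes tested were called in none of the 3 comparisons, and Mx1 had no reads in ES cells.

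Genes of the same pathways outside the 45, from fixed lists, were read beside them. Of 18 tested genes of interferon production and signalling, 4 were higher and 8 lower in KO, and 4 higher and 5 lower in DKO against WT. Of 11 other interferon-stimulated genes 3 were higher and 5 lower in KO, and 2 higher and 6 lower in DKO, and of 10 other class I genes 3 and 4 in KO, 2 and 6 in DKO. Of all genes 42.7% were called in KO and 63.9% in DKO, so that the 9 of 18 signalling genes called in DKO are a smaller share. The signalling genes in KO and the other lists in KO and DKO were called at larger shares than all genes. With 11 and 10 genes in the other lists, the shares in DKO do not set these lists apart from all genes. The median log2 fold changes of these lists were -0.13, -0.43 and -0.21 in KO and 0.14, -0.56 and -0.38 in DKO. Ifi35, an interferon-stimulated gene, had the order of the OAS genes, at 2.98 and 2.25 CPM in WT, 8.60 and 11.1 in KO and 1.20 and 0.406 in DKO (1.92 in KO, edgeR adjusted p = 0.00077; -1.71 in DKO, adjusted p = 0.0040). Psmb10, an immunoproteasome subunit, was lower in both, at 37.4 and 38.1 CPM in WT, 15.5 and 16.6 in KO and 6.74 and 3.01 in DKO (-1.22, edgeR adjusted p = 0.0016, and -2.95, adjusted p = 1.7e-06).

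Differentiated cells held RNA of interferon-stimulated genes that were near 0 in ES cells, among them Isg15, Usp18, Ifit1 and Rsad2. Over the 12 libraries 34 of the 45 genes passed the filter. Of these 12 were higher and 3 lower in differentiated than in ES cells. Of all 13429 genes tested 35.8% were called, 20.1% higher and 15.7% lower. Ifit1, Ifit2, Ifit3, Isg15, Isg20, Usp18, Rsad2, Oasl2, Psmb8, Psmb9 and Tap2 passed only with differentiated libraries counted. The filter favoured a rise among them, so the counts and the median are not evidence of a rise of the whole list. The median log2 fold change was 0.71 for the 34 genes and 0.02 for all. By role 7 of 9 antiviral effectors, 4 of 8 class I genes and 1 of 4 OAS genes were higher. Of 6 receptors and transcription factors, 4 sensors and 3 IFITM genes, 0 were higher. The effectors called, Bst2 excepted, and Oasl2, Psmb8 and Tap2 passed the filter only with differentiated libraries. The roles are therefore not compared with each other. The cells also differed in kind. In WT the summed level of 8 ES cell markers was 10301 and 10184 CPM in ES cells, 727 at day 8 and 306 at day 12, while in KO it was 4827 and 2057 and in DKO 8157 and 3802 at these days. Summed over 8 fibroblast markers the level was 13.2 to 26.6 CPM in the 6 ES libraries, 4039 and 2824 in differentiated WT, 83.9 and 1037 in KO and 24.2 and 147 in DKO. Summed over 6 markers of visceral endoderm it was 5.38 to 16.9 CPM in ES cells, 529 and 667 in differentiated WT, 13.9 and 525 in KO and 132 and 1077 in DKO. In bulk RNA fewer cells of a type and less RNA per cell cannot be told apart, and each genotype and day had 1 library.

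**Figure D4:**
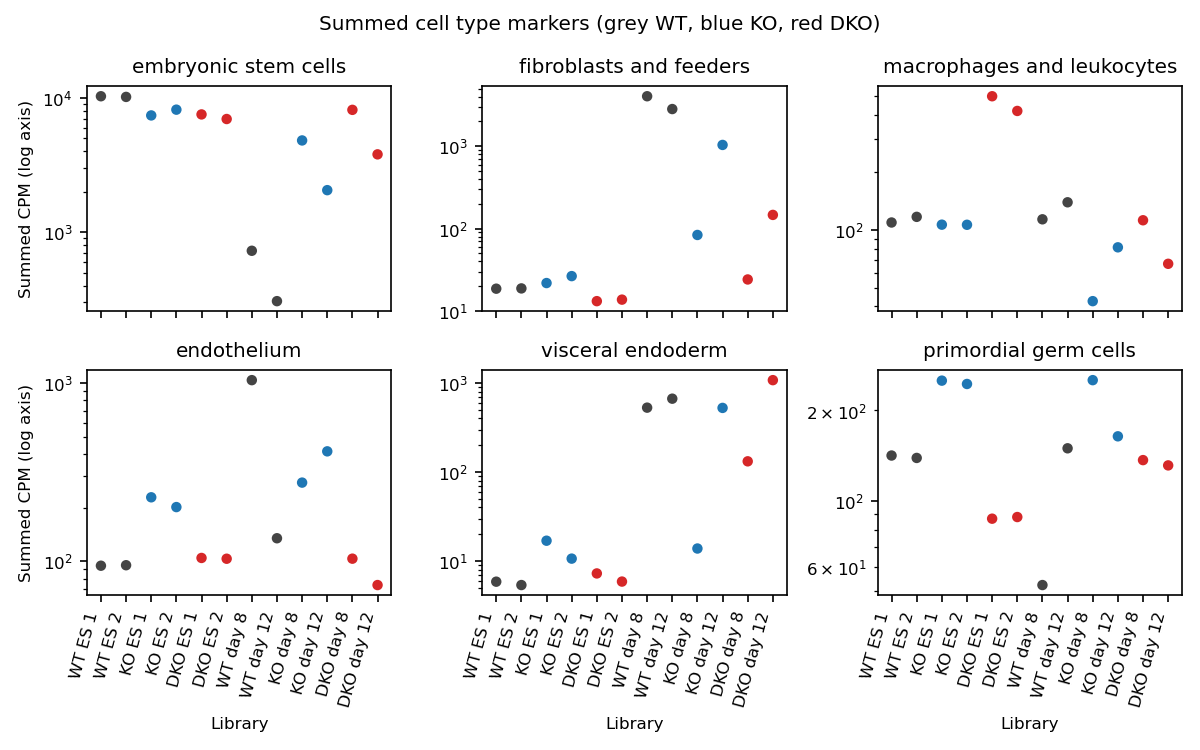
Summed CPM (log axis) of 6 lists of cell type markers in the 12 libraries, listed by genotype and day. ES cell markers were lowest in differentiated WT and at 8157 CPM in DKO at day 8, and fibroblast markers were highest in differentiated WT.

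Isg15, a ubiquitin-like protein that is joined to other proteins after interferon, was at 0.0828 and 0 CPM in the WT ES libraries and at 3.62 at day 8 and 8.83 at day 12. In KO it went from 0.0831 and 0.0434 CPM to 3.65 and 3.28, and in DKO from 0.178 and 0.0813 to 0.129 and 0.117. It therefore appeared in differentiated WT and KO and not in DKO. Over the genotypes it was higher by 4.49 on the log2 scale (SE 1.17, edgeR adjusted p = 0.016; without WT ES replicate 1 4.07, adjusted p = 0.054). Within WT it was higher by 7.00 (SE 0.91, edgeR adjusted p = 0.00036) and within KO by 5.69 (SE 0.86, adjusted p = 0.0034). The difference between the DKO and the WT response was -7.07 (SE 1.38, edgeR adjusted p = 0.0048). Isg15 had 2 and 0 reads in the WT ES libraries, 4 and 2 in DKO ES cells and 3 and 3 in differentiated DKO. The sizes are therefore uncertain. Over the alternative fits the difference ranged from -10.2 to -2.38, and the rise within WT from 2.38 to 10.2.

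Usp18, the protease that removes Isg15 and damps the receptor, had no reads in WT ES cells and was at 4.08 and 8.59 CPM in differentiated WT, at least 51.8-fold higher at 3 counts per library. It was at 1.59 and 3.28 CPM in differentiated KO and 0 and 1.25 in DKO, and DKO at day 8 was the only differentiated library with none. Rsad2 (viperin), which makes a chain-ending nucleotide, was at 0.579 and 0.563 CPM in the WT ES libraries and 34.0 and 13.7 in differentiated WT, at 3.44 and 10.7 in KO and at 0.172 and 0 in DKO. It rose by 5.32 within WT (SE 0.91, edgeR adjusted p = 0.0014) and 4.26 within KO (SE 0.91, adjusted p = 0.012; 0.092 and 0.081 without KO ES replicate 1 and 2). The DKO response differed from that of WT by -5.95 (SE 1.66, edgeR adjusted p = 0.021), a call lost without WT ES replicate 1 (0.052), WT ES replicate 2 (0.053) or DKO ES replicate 1 (0.14). Over the genotypes Rsad2 was higher by 3.73 (SE 1.01, edgeR adjusted p = 0.018), lost without WT ES replicate 1 (0.060), WT ES replicate 2 (0.060) or KO ES replicate 1 (0.054).

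The IFIT genes, which bind foreign RNA or translation factors, also had their highest library in differentiated WT, but the DKO response was not called different from that of WT for any of the 3. Ifit1 was at 0.0828 and 0.161 CPM in the WT ES libraries and 5.74 and 5.77 in differentiated WT (5.51, SE 0.86, edgeR adjusted p = 0.00082), at 0.797 and 0.875 in differentiated KO and 0.129 and 0.312 in DKO. Ifit3 was at 7.24 and 5.05 CPM in differentiated WT, 0 and 1.64 in KO and 0 and 0.156 in DKO, and was not called in the pooled comparison. Ifit2 was at 26.6 and 8.55 CPM in differentiated WT, 5.12 and 11.3 in KO and 1.33 and 1.25 in DKO, so that WT and KO overlapped, and over the genotypes it rose by 2.35 (SE 0.42, edgeR adjusted p = 0.0036). Unlike Isg15 and Rsad2, Ifit2 was called higher within DKO (3.28, SE 0.90, edgeR adjusted p = 0.038), a call lost when any 1 of the 4 DKO libraries was left out (adjusted p 0.10 to 0.21). Ifit1 and Ifit3 are similar copies, and the split of their reads is uncertain. Isg20, an RNA exonuclease, rose by 3.23 over the genotypes (SE 0.89, edgeR adjusted p = 0.019; without WT ES replicate 2 2.95, adjusted p = 0.058), with 12.0 CPM in WT at day 12 as its highest library.

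Bst2 was at 56.6 CPM at day 8 and 197 at day 12 in WT, 93.6 and 64.6 in KO and 43.1 and 113 in DKO. It rose over the genotypes by 1.64 (SE 0.50, edgeR adjusted p = 0.028). This call was lost when WT ES replicate 1 (adjusted p = 0.075), WT ES replicate 2 (0.080), DKO ES replicate 1 (0.062), DKO ES replicate 2 (0.063), DKO day 12 (0.052) or WT day 12 (0.067) was left out. Differentiated KO cells did not stand above their ES cells in the day 12 library, at 64.6 CPM against 80.1 and 74.7. Oasl2, an OAS-like protein, was at 3.73 and 21.2 CPM in WT, 20.2 and 8.86 in KO and 3.57 and 3.16 in DKO. Each was above the ES libraries of its genotype, which lay between 0.0813 and 1.41. Its rise over the genotypes was 3.85 (SE 0.51, edgeR adjusted p = 0.0011).

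The immunoproteasome subunit Psmb8 and both chains of the peptide transporter rose, while the subunits Psmb9 and Psmb10 did not pass the pooled test. Psmb8 (LMP7), which replaces a catalytic subunit of the proteasome, was below 0.5 CPM in all ES libraries and at 1.58 and 4.29 in differentiated WT, 14.6 and 11.5 in KO and 1.16 and 3.86 in DKO. It rose by 5.21 (SE 0.65, edgeR adjusted p = 0.00090), and within WT, KO and DKO by 3.41, 6.75 and 5.55, the last lost without DKO ES replicate 2 (5.48, adjusted p = 0.058). Tap1 was at 16.8 and 35.3 CPM in WT, 24.8 and 29.9 in KO and 17.8 and 39.5 in DKO, similar levels in the 3 genotypes, and rose by 1.83 (SE 0.39, edgeR adjusted p = 0.0069). Tap2, its partner, rose by 1.67 (SE 0.29, edgeR adjusted p = 0.0031) and Tapbp by 1.05 (SE 0.26, adjusted p = 0.014). Psmb9 (LMP2), whose gene lies beside Tap1, went the other way in WT, from 1.03 and 0.804 CPM to 0.193 and 0.199 (-2.20, SE 0.62, edgeR adjusted p = 0.014; 0.069 without WT ES replicate 1 and 0.085 without WT day 8). It was at 2.77 and 1.42 in differentiated KO and 1.33 and 1.25 in DKO. Psmb10 was at 6.35 and 4.53 CPM in differentiated WT, 31.9 and 14.9 in KO and 10.8 and 10.2 in DKO. Within WT it fell by 2.81 (SE 0.39, edgeR adjusted p = 0.00049), and its responses were above that of WT by 3.28 in KO (adjusted p = 0.0083) and 3.94 in DKO (adjusted p = 0.0011).

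B2m behaved differently in the 3 genotypes. It went from 18.5 and 15.1 CPM to 39.5 and 97.5 in WT, from 8.10 and 8.11 to 15.2 and 36.8 in KO, and from 71.9 and 60.6 to 11.4 and 24.6 in DKO. It rose in WT by 1.88 (SE 0.17, edgeR adjusted p = 7.7e-05) and in KO by 1.55 (SE 0.18, adjusted p = 0.0014) and was lower after differentiation in DKO (-1.98, SE 0.17, adjusted p = 0.00069). The DKO response was below that of WT by -3.87 (SE 0.25, edgeR adjusted p = 6.7e-05). Since DKO ES cells started highest, the order of B2m in ES cells (DKO, WT, KO) became WT, KO, DKO in the means after differentiation, with KO and DKO overlapping. H2-D1 and H2-K1 had their highest library in WT at day 12, at 214 and 199 CPM, against 37.5 and 58.4 at day 8, and neither was called in any comparison of differentiated with ES cells.

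**Figure D5:**
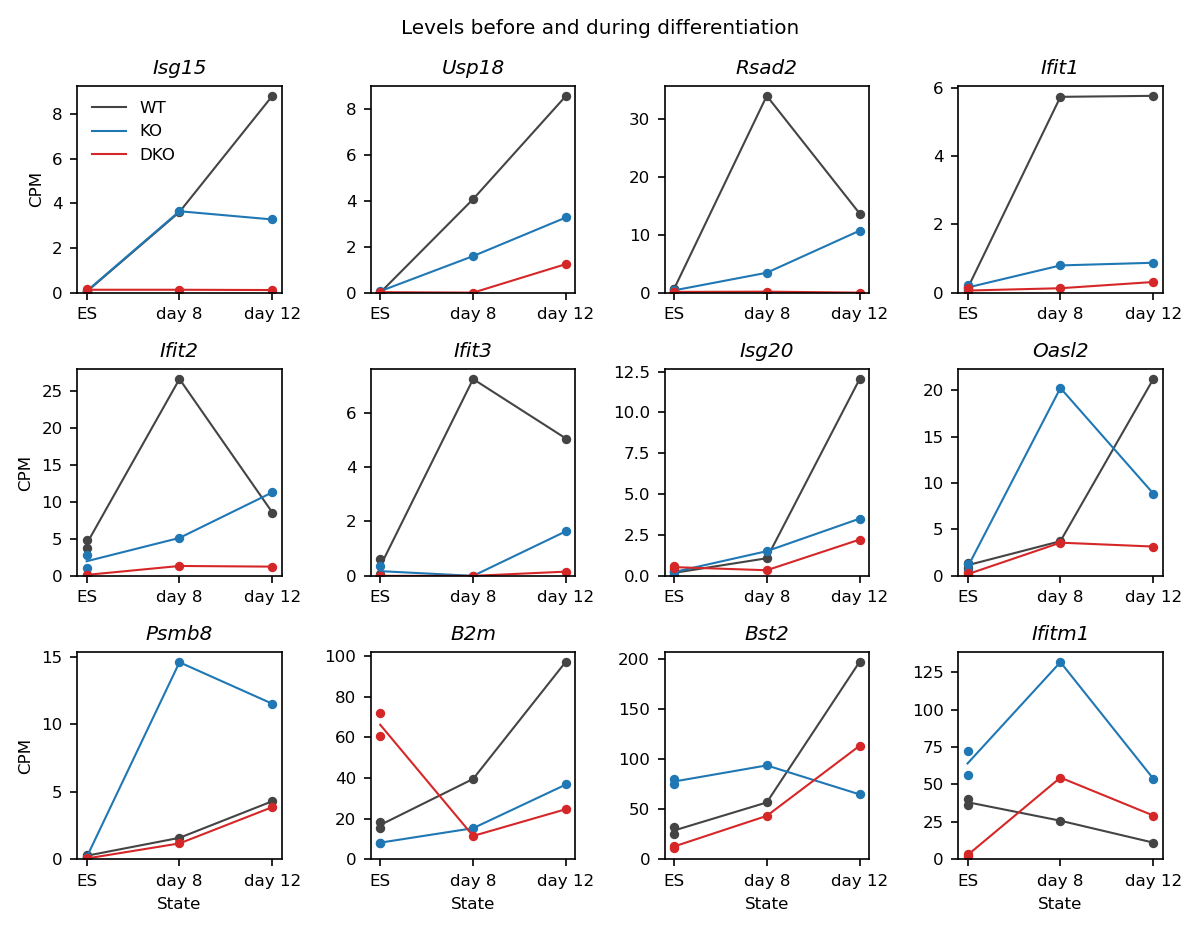
Level (CPM) of 12 genes in ES cells and at days 8 and 12 for the 3 genotypes; points are libraries and the line starts from the mean of the 2 ES libraries. Isg15, Rsad2 and Ifit1 are above 3 CPM in differentiated WT and near 0 in DKO, and B2m and Ifitm1 in DKO run against WT.

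The IFITM genes, held at high levels in WT and KO ES cells, had a larger response to differentiation in DKO than in WT. Ifitm1 was at 25.7 and 11.0 CPM in differentiated WT, 132 and 53.8 in KO and 54.6 and 29.1 in DKO. It was lower than in ES cells within WT (-1.18, SE 0.23, edgeR adjusted p = 0.0024), rose within DKO by 3.91 (SE 0.26, adjusted p = 0.00029), and the 2 responses differed by 5.09 (SE 0.34, adjusted p = 7.9e-05). Ifitm3 was at 37.5 and 32.6 CPM in WT, 139 and 72.5 in KO and 64.9 and 40.7 in DKO, and the DKO response differed from that of WT by 2.02 (SE 0.25, edgeR adjusted p = 0.00068). Within WT and KO it was lower than in ES cells (-1.20 and -1.24). Within DKO it was higher by 0.82 (SE 0.18, edgeR adjusted p = 0.016), a call lost when any 1 of the 4 DKO libraries was left out (adjusted p 0.050 to 0.11). Ifitm2 was at 132 and 98.3 CPM in WT, 196 and 141 in KO and 166 and 99.0 in DKO, with a DKO response 1.50 above that of WT (SE 0.31, edgeR adjusted p = 0.0063). Oas1a was at 1.62 and 8.95 CPM in WT, 9.36 and 4.38 in KO and 1.25 and 0.312 in DKO, and was called in no comparison of differentiated with ES cells. Oas2 was lower within WT (-2.59, SE 0.80, edgeR adjusted p = 0.022; without WT ES replicate 1 0.062, WT ES replicate 2 0.073 and WT day 8 0.10). It was also lower within KO (-2.46, SE 0.76, edgeR adjusted p = 0.042; without KO day 12 -1.37, adjusted p = 0.24).

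Of the sensors, Ddx58 and Adar were lower after differentiation in the pooled comparison. Ddx58 was at 16.1 and 32.4 CPM in WT, 14.9 and 16.7 in KO and 7.58 and 12.9 in DKO, below all 6 ES libraries (47.3 to 71.2) and lower by the test (-1.89, SE 0.22, edgeR adjusted p = 0.00069). Adar was at 83.1 and 89.6 CPM in WT, 96.4 and 81.8 in KO and 102 and 127 in DKO (-0.68, SE 0.15, edgeR adjusted p = 0.0078). Ifih1, the MDA5 sensor, ran the other way: between 0 and 0.124 CPM in ES cells, it was at 2.19 and 10.2 in WT, 1.13 and 3.32 in KO and 0.0861 and 1.79 in DKO. In the fit of every gene with a read (25% of 19698 called) Ifih1 was higher after differentiation (6.13), as were Mx2 (4.37) and Tlr3 (2.30). None of the 11 genes below the filter was lower. Xaf1 was lower after differentiation (-1.50, SE 0.42, edgeR adjusted p = 0.021; without KO day 12 -1.32, adjusted p = 0.058).

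Receptor genes rose in WT. Ifnar1 was at 149 and 139 CPM in differentiated WT, 76.5 and 105 in KO and 50.9 and 89.7 in DKO, against 61.2 to 87.0 in the ES libraries, and within WT it rose by 1.11 (SE 0.20, edgeR adjusted p = 0.0017). Ifnar2 was at 35.4 and 59.8 CPM in WT, 11.4 and 19.99 in KO and 16.2 and 17.1 in DKO, and rose within WT by 2.21 (SE 0.24, edgeR adjusted p = 0.00014). For Ifnar2 the responses of KO (-1.81, SE 0.32, edgeR adjusted p = 0.011) and DKO (-2.20, SE 0.32, adjusted p = 0.0014) were below that of WT. Irf1 was at 18.7 and 28.4 CPM in WT, 155 and 66.3 in KO and 55.5 and 41.5 in DKO. Its responses were above that of WT by 2.0 in KO (SE 0.50, edgeR adjusted p = 0.031) and 2.19 in DKO (SE 0.49, adjusted p = 0.0090). The KO calls were lost without single ES libraries: for Irf1 without WT ES replicate 1 (adjusted p = 0.12), WT ES replicate 2 (0.11), KO ES replicate 1 (0.13) or KO ES replicate 2 (0.10). For Ifnar2 this held without WT ES replicate 1 (0.063), WT ES replicate 2 (0.064) or KO ES replicate 2 (0.055).

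Within WT 15 of 34 genes were higher and 6 lower after differentiation, where 61.1% of all genes were called, 31.2% higher and 29.8% lower. Within KO 11 were higher and 5 lower (29.3% of all genes called, 15.8% higher and 13.5% lower), and within DKO 9 higher and 3 lower (19.7%, 10.4% and 9.25%). These counts rest on unequal spreads and are not compared with each other. Part of the 34 genes passed the filter only with differentiated libraries counted, which favours a rise. The test of the difference itself called 3 genes with a larger and 2 with a smaller response in KO than in WT (16.3% of all genes called, 9.07% and 7.24%), and 6 and 7 in DKO (42%, 21.1% and 20.8%). In DKO the 3 IFITM genes, Irf1, Psmb9 and Oas1g had the larger response, and B2m, Isg15, Isg20, Rsad2, Tap1, Ifnar1 and Ifnar2 the smaller. Beside this, all 8 ES cell markers had a less negative response in DKO than in WT, 8 of 8 called, and 5 of 8 fibroblast markers a smaller one. Of 5 leukocyte markers tested 1 had a smaller response in DKO, as had 2 of 6 endothelial markers, while 5 of 6 germ cell markers had a larger one. Summed over 8 leukocyte markers the level was 114 and 140 CPM in differentiated WT, 42.5 and 81.2 in KO and 112 and 66.6 in DKO. The single markers differed. Csf1r, a receptor of macrophages, was at 6.39 and 25.4 CPM in differentiated WT, 0.168 and 12.0 in KO and 0.732 and 0.857 in DKO. Tyrobp was at 4.004 and 4.02, 0.0420 and 2.55, and 0.129 and 0. Laptm5, the largest part of the sum at day 8, ran the other way in DKO, at 96.0 and 55.2 CPM against 78.5 and 36.7 in WT. In KO against WT all 8 ES cell markers were also called with a less negative response, with 0 of 8 fibroblast and 3 of 6 germ cell markers called. Their part in the differences of interferon genes was not tested.

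Between genotypes after differentiation few genes of any kind were called, with 1 library per genotype and day. In DKO against WT 0 of 33 genes were higher and 2 lower, where 2.18% of 12896 genes were called, 1.52% higher and 0.659% lower. These were B2m (-1.85, SE 0.22, edgeR adjusted p = 0.047) and Isg15 (-5.50, SE 0.74, adjusted p = 0.050, under the threshold before rounding). Both calls were lost without DKO day 8 (adjusted p = 0.30 for each) or DKO day 12 (0.26 for each), and that of B2m without WT day 8 (0.063). Ifit1 missed the threshold narrowly (-4.67, SE 0.64, edgeR adjusted p = 0.050), and Rsad2 had -8.02 (SE 1.45, adjusted p = 0.060). For both, the 2 DKO libraries lay below the 2 WT and the 2 KO libraries. The share of all genes with this order is not given here. In DKO at days 8 and 12 Isg15 had 3 and 3 reads and Rsad2 4 and 0, so the sizes of their differences are uncertain.

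In KO against WT 0 of 33 were called, as were 0% of all genes. The values of Ifitm1 (2.34, SE 0.23, edgeR adjusted p = 0.079), B2m (-1.38, SE 0.22, adjusted p = 0.086) and Ifitm3 (1.53, SE 0.27, adjusted p = 0.098) had the smallest adjusted p. In DKO against KO 0 of 33 were called, where 0.00775% of all genes were (1 gene). Between days 12 and 8, 0 of 33 genes and 0% of all genes were called. DESeq2 called more of the 33 in each comparison of differentiated cells, as given in the last section. On simulated counts the differentiated test of DKO against WT recovered 1% of 2-fold and 41% of 4-fold changes, against 91% and 99% for DKO against WT in ES cells, so 2-fold differences were rarely detectable in this design.

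Part of the other genes of these pathways rose on differentiation. Of 17 other interferon-stimulated genes tested 7 were higher and 0 lower, of 20 signalling genes 7 and 2, and of 12 class I genes 4 and 0, where 20.1% of all genes were higher and 15.7% lower. The median log2 fold changes of the lists were 0.62, 0.14 and 0.20, against 0.02 for all genes. In ES cells alone 11, 18 and 10 genes of these lists passed the filter. The rest entered only with differentiated libraries counted, which favours a rise. Gbp2, a GTPase against intracellular pathogens, was between 0 and 0.434 CPM in the ES libraries and at 2.12 and 4.93 in differentiated WT, 25.3 and 18.9 in KO and 2.11 and 3.78 in DKO (5.36, SE 0.53, edgeR adjusted p = 0.00044). Its order, KO above WT and DKO, was that of Psmb8. Igtp, another such GTPase, rose by 2.41 (SE 0.33, edgeR adjusted p = 0.0012), and the 2 chains of the interferon gamma receptor, Ifngr1 and Ifngr2, rose by 1.76 (SE 0.27, adjusted p = 0.0019) and 1.97 (SE 0.35, adjusted p = 0.0035). Socs3, an inhibitor of JAK kinases, was lower (-1.73, SE 0.47, edgeR adjusted p = 0.019), with 514 CPM in WT at day 12 as an exception close to the 545 and 512 of WT ES cells.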

How the data were processed

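Polyadenylated RNA was sequenced on an Illumina platform, with NEBNext Ultra II libraries, per the labels' protocols. Reads were aligned with Bowtie2 to mm9, per the submitters' processing notes. The counting program, its use of strand and of reads mapping to several places are not given in the sources used here, so overlapping, antisense and near-identical genes are uncertain. The deposited tables held, per RefSeq transcript model (29257), raw read counts and RPKM, which the authors made by dividing by model length and a library total larger than the reads in genes, as the values show. The longest model stood for each of 22878 symbols.

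Counts were tested with edgeR 4.0.16 (TMM scaling, quasi-likelihood test, Benjamini-Hochberg adjusted p under 0.05 over all genes that reached 1 RPKM in 2 or more of the libraries fitted). SE is the log2 fold change over the square root of F. ES comparisons used 6 libraries (3 residual degrees of freedom), and differentiated ones 6 with genotype and day. The pooled comparison of differentiated with ES cells used all 12 with genotype and no day term. The rest used all 12 with a mean per genotype and state, and day as a term. CPM were scaled over the 12 libraries. Alternatives (R 4.3.3) were DESeq2 1.42.0, limma 3.58.1 on log2(RPKM + 1) and log2(RPKM + 0.1), other scaling, no filter, other models, all libraries in the fit, a block on the replicate number, and fits without 1 library each. Python 3.11.15, pandas 2.3.3, numpy 2.4.6 and matplotlib 3.10.9 were used. The scripts were tested on simulated data with 200 changed genes.

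The 45 genes and the other lists were chosen with earlier results of these data known. All 45 could be named, with values per library for genes past the threshold and at 1 RPKM or more in a group. Other pathway genes were named from up to 3 per list, direction and comparison by adjusted p. Exceptions chosen after their values were seen are Suv420h1, Suv420h2 and the single cell type markers, Laptm5 among them. Floors of 3 counts cover counting error only. Promoters came from RefSeq by symbol, and the mm9 sequence was not used here.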

Additional observations from a re-analysis of the deposited data

Results flagged for a closer look

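Several genes responded to differentiation differently in the mutants than in WT, by the interaction term of the edgeR fit over 12 libraries (log2 differences, adjusted p under 0.05 over all genes). In KO the response was larger for Ifitm1 (1.58, SE 0.32), Irf1 (2.0, SE 0.50) and Psmb9 (3.81, SE 0.83) and smaller for Ifnar1 (-1.0, SE 0.28) and Ifnar2 (-1.81, SE 0.32). Without WT ES replicate 1 the adjusted p of these 5 was 0.080, 0.12, 0.091, 0.13 and 0.063.

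In DKO the response was larger for Ifitm1 (5.09, SE 0.34), Ifitm2 (1.50, SE 0.31), Ifitm3 (2.02, SE 0.25), Irf1 (2.19, SE 0.49), Psmb9 (4.19, SE 0.85) and Oas1g (7.19, a value that depends on the prior count, since DKO ES cells had no reads). It was smaller for B2m (-3.87, SE 0.25), Isg15 (-7.07, SE 1.38), Rsad2 (-5.95, SE 1.66), Isg20 (-3.64, SE 0.99), Ifnar2 (-2.20, SE 0.32), Tap1 (-2.06, SE 0.49) and Ifnar1 (-0.98, SE 0.28). The sizes for Isg15 and Rsad2 rest on few reads in DKO. Over the alternative fits they ranged from -10.2 to -2.38 and from -10.2 to -2.02. The calls of Isg20, Ifnar1, Rsad2, Tap1 and Oas1g in DKO were each lost without at least 1 library, while Isg20 without WT day 12 was at -2.60 (adjusted p = 0.070), Ifnar1 without DKO day 8 at -0.66 (0.086), Tap1 without WT ES replicate 2 at -1.98 (0.052), Rsad2 without DKO ES replicate 1 at -5.33 (0.14) and Oas1g without DKO day 8 at 6.44 (0.10).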

How the results depend on the processing

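The numbers of genes called in ES cells, both directions together, stayed within 1.5 times of those above under every alternative run on the same 6 libraries. By direction, without a filter 22 were lower in DKO against WT and 18 in DKO against KO (14 and 11 above), and with the replicate block 3 were higher in DKO against KO (5 above). By contrast, the fit of all 12 libraries called 5 in KO against WT, where the report has 12 higher and 5 lower. Leaving out 1 library gave 9 to 12 in KO against WT, with 9 when KO ES replicate 2 and 11 when either WT ES library was dropped, 16 to 20 in DKO against WT and 13 to 16 in DKO against KO. It gave 12 to 18 for differentiated against ES cells, 17 to 24, 5 to 14 and 4 to 9 within WT, KO and DKO, 0 to 10 and 9 to 20 for the KO and DKO interactions, 0 to 5 for differentiated DKO against WT and 0 to 0 for the other 2 differentiated comparisons and the days. DESeq2 called 10 in differentiated KO against WT, 15 in DKO against WT, 5 in DKO against KO, 10 in the KO interaction and 3 between days. With all 12 libraries in the fit the differentiated counts were 11, 19 and 8. limma on log2(RPKM + 1) called 1 in differentiated KO against WT and 8 in the KO interaction, and limma on log2(RPKM + 0.1) called 1 and, in DKO against WT, 4. The causes were not tested. The shares of all genes called under these alternatives are not given here, so these counts do not set the listed genes apart. Some genes not called above passed the threshold in opposite directions without 1 library. H2-K1 was at 1.28 within WT without WT day 8 and -1.22 without WT day 12. In the KO interaction it was at -1.55 and 0.94 and in the DKO interaction at -0.76 and 1.74 without these libraries. Xaf1 in the DKO interaction was at -1.49 and 1.40 without them. Bst2 within KO was at -1.06 without KO day 8 and 1.08 without KO day 12. With the replicate block 15, 20 and 14 genes were called in the 3 ES comparisons, without Ddx58 (edgeR adjusted p = 0.074) and Ifnar1 (0.079), Xaf1 (0.065), and Irf9 (0.056) and Tap1 (0.055). Same-numbered replicates did not deviate together (correlations -0.01, -0.05 and -0.08). This cannot settle if they shared a culture or batch, which the labels leave unsaid.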
